A study of Mus musculus with 9 samples.

Results

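The genes described here are 8 members of the adrenergic and cAMP signalling pathway, measured by RNA sequencing in mouse brown adipose tissue. They are the beta-adrenergic receptors Adrb1 and Adrb3, the alpha-adrenergic receptors Adra1a and Adra2a, the adenylyl cyclase Adcy3, the protein kinase A regulatory subunit Prkar2b, and the phosphodiesterases Pde3b and Pde4d. They were picked by name as a set, with earlier results of these data known, and all 8 were found by exact symbol among the 24356 symbols of the expression tables. All 8 were above 0 FPKM in each of 9 libraries, and so they are all among the 14675 genes that could be tested.

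The study compared GHRH-KO mice, in which the gene for growth hormone releasing hormone is knocked out, with littermate wild type (WT) mice of both sexes. There were 4 KO libraries (2 females, 2 males) and 5 WT libraries (3 females, 2 males), 1 per animal. KO and WT animals shared a mixed C57BL6 and 129SV background, unrestricted chow and water, and an ambient temperature of 20 to 23 degrees Celsius. The labels give no age and do not say which animals came from the same litter. The tests below therefore treat the animals as independent, which could not be checked. The deletion is carried in every cell of the body and is not limited to fat. The level unit is FPKM, the number of fragments normalized by transcript length and by library depth, which allows genes to be compared within a library.

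Sympathetic nerves release noradrenaline onto brown adipocytes. Beta-adrenergic receptors pass the signal through the stimulatory G protein to adenylyl cyclase, which makes cAMP, and cAMP releases protein kinase A from its regulatory subunits to drive lipolysis and heat production through Ucp1. Alpha-2 receptors and other inhibitory receptors oppose the cyclase, alpha-1 receptors act through calcium, and phosphodiesterases break cAMP down.

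In the libraries themselves, the targeted gene was above 0 FPKM only under the KO label. Ghrh was listed at 0 FPKM throughout the WT group. The libraries labelled KO had 0.846, 0.233, 0.799 and 0.470 FPKM. Which part of the transcript these values come from is unknown, and whether the labels are right was not tested. Every direction below is therefore libraries labelled KO against libraries labelled WT, with the labels taken as given. The sums of FPKM ran from 380558 to 443569 per library, and the relative depth read from low values ran from 0.904 to 1.145. KO male 1 stood apart, with Spearman correlations of 0.924 to 0.934 with the other libraries, and its summed lymphocyte markers reached 78.5 FPKM against 0.510 to 1.45 in the WT libraries. All 9 brown adipocyte markers were detected, and their sums overlapped (6443 to 8338 FPKM in KO, 6070 to 7883 in WT).

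The members covered a wide range of levels. Their order by mean over the 9 libraries was Prkar2b (294 ± 31.8 FPKM, SD, n = 9), Pde3b (57.1 ± 9.498), Adrb3 (43.4 ± 12.2), Adcy3 (23.6 ± 6.12), Pde4d (22.2 ± 5.59), Adra1a (12.1 ± 3.38), Adrb1 (10.96 ± 5.83) and Adra2a (0.127 ± 0.0911). Only the first and the last pair of neighbours had ranges that did not overlap. Adcy3 was above Pde4d in 6 of 9 libraries and Adra1a above Adrb1 in 6 of 9, so these neighbours were not separated.

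**Figure D1:**
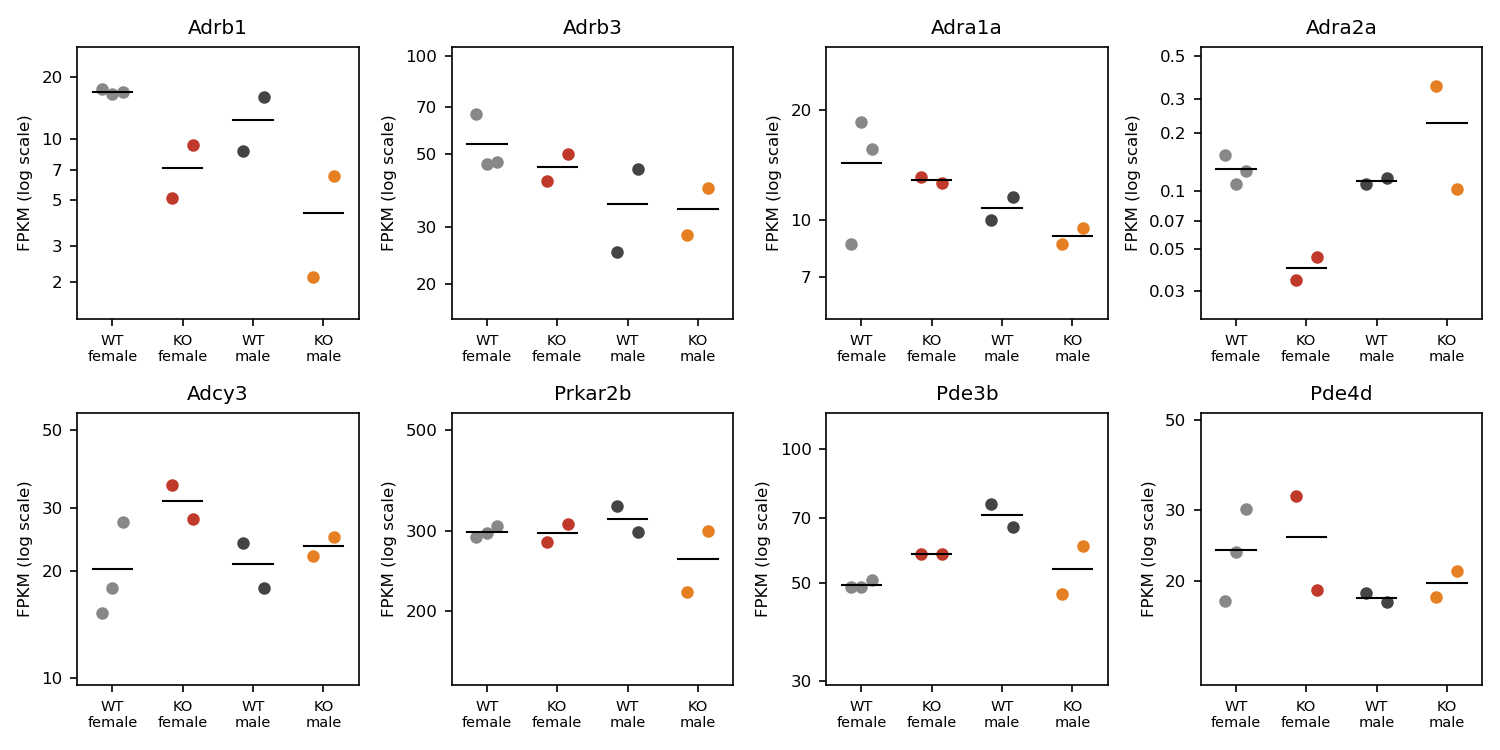
Level of each of the 8 genes (vertical axis, FPKM, log scale with a separate range for each gene) by labelled genotype and sex. Each point is 1 library and each bar is the mean of its group. Adrb1 lies at 5.12 and 9.31 FPKM in KO females against 16.5 to 17.5 in WT females, while Prkar2b lies between 221 and 340 FPKM in all 9 libraries.

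The promoter windows of Adrb1 and Adra2a are shown because these were the members that held TGACG, the core of the cAMP response element. Each is the 250 bases before the RefSeq start (GRCm38.p6, plus strand), with the core in capitals.
Adrb1, chr19:56721867-56722116: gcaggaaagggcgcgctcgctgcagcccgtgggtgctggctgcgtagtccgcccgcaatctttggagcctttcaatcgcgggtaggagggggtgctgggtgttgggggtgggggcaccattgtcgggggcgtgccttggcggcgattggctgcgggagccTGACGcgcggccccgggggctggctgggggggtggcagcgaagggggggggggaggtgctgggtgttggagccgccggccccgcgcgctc
Adra2a, chr19:54045009-54045258: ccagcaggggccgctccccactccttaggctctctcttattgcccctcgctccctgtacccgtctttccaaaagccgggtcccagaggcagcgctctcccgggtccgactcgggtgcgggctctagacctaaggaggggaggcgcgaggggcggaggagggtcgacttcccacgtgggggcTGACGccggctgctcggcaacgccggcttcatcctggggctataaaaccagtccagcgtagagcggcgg
The core starts 90 bases before the start of Adrb1 and 69 bases before that of Adra2a. It was searched on both strands, in windows from 250 bases before to 50 after the start, and was held by 6837 of 32851 promoters (20.8%). The RefSeq table had 7 such windows for 5 members (Adrb1, Adra2a, Adcy3, Prkar2b and Pde4d). The full element TGACGTCA, which contains the core, was in 588 of all promoters (1.79%) and in 0 of the 7 windows. The STAT motif TTCNNNGAA was in 2726 of all promoters (8.30%) and in 1 window of Adcy3, starting 238 bases before that start. These are matches of letters only.

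Adrb1 had the largest difference of the 8 genes between genotypes averaged over the sexes, and in females alone Adra2a had a larger one. It encodes the beta-1 receptor, known in brown fat chiefly from precursor cells, and lies at chr19:56722117-56725150 of mm10. Its level was 17.5, 16.5 and 16.8 FPKM in the WT females and 8.71 and 16.0 in the WT males. It was 5.12 and 9.31 FPKM in the KO females and 2.12 and 6.62 in the KO males. Within each sex every KO library was below every WT library, but across the sexes KO female 2 was above WT male 1. This pattern within both sexes was seen for 1 of 8 members and for 9.66% of all genes tested.

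The mean of Adrb1 was 5.79 ± 3.00 FPKM in KO (SD, n = 4) against 15.1 ± 3.61 in WT (n = 5). The difference averaged over the sexes was -1.48 on the log2 scale (SE 0.36), with an adjusted p of 0.0661 by limma, which did not pass 0.05. Its unadjusted limma p was 0.00387, the only one of the 8 members under 0.05, where 20.2% of all genes tested were under 0.05. The exact permutation test over all 126 ways to divide the 9 libraries into 4 and 5 gave p = 0.0238 (two-sided, smallest possible 0.00794), and within the sexes 0.0167, the smallest that the 60 such divisions allow. Neither permutation p is adjusted over the 8 members, and Adrb1 is the member with the largest difference, so they are no further support. The difference was -1.29 in females (SE 0.49, limma adjusted p 0.338) and -1.66 in males (SE 0.53, limma adjusted p 0.174), and the interaction of genotype and sex was -0.36 (SE 0.72, limma adjusted p 0.907). Without KO male 2 the averaged difference was -1.89 and passed (limma adjusted p 0.0194), where 7.53% of all genes were called, and without KO male 1 it was -1.06 (limma adjusted p 0.0658). Over the alternatives the adjusted p ran from 0.0194 to 0.222, and the sign stayed negative in all 22.

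Adrb3, the beta-3 receptor typical of mouse adipocytes (chr8:27225776-27230845), was the most abundant of the 4 receptors described here in each of the 9 libraries. Its level was 66.6, 46.8 and 47.5 FPKM in the WT females, 25.0 and 45.1 in the WT males, 41.3 and 50.1 in the KO females and 28.3 and 39.5 in the KO males. The genotypes overlapped in both sexes. The averaged difference was -0.11 (SE 0.21, limma adjusted p 0.843), and its sign changed when KO male 1 (0.0078) or WT male 2 (0.10) was left out. Males had the lower mean, with a difference of -0.55 between the sexes (SE 0.21, limma adjusted p 0.432), which did not pass.

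Adra1a, the alpha-1A receptor (chr14:66635251-66771240), ranged from 8.62 to 13.1 FPKM in KO and from 8.65 to 18.6 in WT. The KO males, at 8.62 and 9.54 FPKM, lay below the WT males, at 10.03 and 11.6, and the females overlapped. How many of all genes were apart within 1 sex in this way was not counted, so no weight is placed on it. Its averaged difference was -0.17 (SE 0.21, limma adjusted p 0.759).

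Adra2a, the alpha-2A receptor (chr19:54045259-54048982), had by far the lowest level of the 8 genes. It stood at 0.154, 0.108 and 0.126 FPKM in the WT females and 0.108 and 0.116 in the WT males. The KO females had 0.0345 and 0.0453 FPKM, below all WT libraries, and the KO males had 0.348 and 0.102. The share of all genes with KO females so placed was not counted. KO male 1 had the highest value of the 9. The averaged difference was -0.47 (SE 0.43, limma adjusted p 0.621), with -1.70 in females (SE 0.58, limma adjusted p 0.294), 0.74 in males (SE 0.63, limma adjusted p 0.638) and an interaction of 2.44 (SE 0.86, limma adjusted p 0.665). In males the difference was -0.14 without KO male 1.

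Adcy3, an adenylyl cyclase of adipocytes and olfactory neurons (chr12:4133116-4213525), had the higher mean in KO, a difference that did not pass. Its level was 15.3, 17.9 and 27.5 FPKM in the WT females, 23.9 and 17.9 in the WT males, 34.8 and 27.96 in the KO females and 22.1 and 25.0 in the KO males. Both KO females were above all WT libraries and the males overlapped. The share of all genes with KO females so placed was not counted. The mean was 27.4 ± 5.47 FPKM in KO (SD, n = 4) against 20.5 ± 5.04 in WT (n = 5), a log2 difference of 0.43 (SE 0.19, limma adjusted p 0.258). The unadjusted exact permutation p was 0.0873. The difference was 0.67 in females (SE 0.25, limma adjusted p 0.337) and 0.18 in males (SE 0.28, limma adjusted p 0.806; -0.029 without WT male 2). Adcy3 overlaps Cenpo in the RefSeq annotation, and the strand setting of the counting was not given in the sources used here, so reads shared between these genes could not be told apart.

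Prkar2b, the type II beta regulatory subunit that holds protein kinase A inactive in fat and brain (chr12:31958450-32061648), was the most abundant and the most even member. Its highest library was only 1.54 times its lowest. It ranged from 221 to 310 FPKM in KO and from 291 to 340 in WT, and KO male 1 had the lowest value. The averaged difference was -0.16 (SE 0.10, limma adjusted p 0.449).

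Pde3b, the phosphodiesterase through which insulin limits lipolysis (chr7:114415222-114537938), had differences of opposite sign in females and males. It was 48.9, 48.8 and 50.8 FPKM in the WT females and 57.9 and 58.0 in the KO females, higher in KO with no overlap. It was 75.5 and 66.8 FPKM in the WT males and 47.1 and 60.5 in the KO males, lower in KO with no overlap. Opposite directions without overlap within each sex were found for 3.35% of all genes tested. The log2 difference was 0.23 in females (SE 0.12, limma adjusted p 0.459) and -0.41 in males (SE 0.13, limma adjusted p 0.160). The interaction was -0.64 (SE 0.17), with an unadjusted limma p of 0.00634 and an adjusted p of 0.624, so the difference between the sexes did not pass. Without KO male 2 the interaction was -0.82 (limma adjusted p 0.0258). In that fit KO male 1 stands alone for its group and is assumed to vary like the libraries of the other groups, and 721 of 14675 genes (4.91%) passed the interaction, against 0 with all libraries. Without KO male 1 the interaction of Pde3b was -0.46 (limma adjusted p 0.661).

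Pde4d, a cAMP-specific phosphodiesterase with many isoforms (chr13:108654177-109955969), ranged from 18.3 to 32.6 FPKM in KO and from 17.7 to 30.2 in WT. The groups overlapped in both sexes and the averaged difference was 0.10 (SE 0.20, limma adjusted p 0.849), which became -0.092 without KO female 1.

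By limma at an adjusted p under 0.05, 0 of 8 members were called for genotype averaged over the sexes, where 3.6% of all genes tested were called, 1.43% higher and 2.17% lower in KO. In the other comparisons 0 of 8 were called as well. Among all genes tested, 0.0204% were called for genotype in females, 0.0136% for genotype in males, 0% for the interaction and 0.0136% for sex. At an unadjusted limma p under 0.05 the members numbered 1 for the averaged genotype (20.2% of all genes), 3 in females (Adrb1, Adra2a and Adcy3, against 12.7% of all genes) and 2 in males (Adrb1 and Pde3b, against 16.6%). They numbered 2 for the interaction (Adra2a and Pde3b, against 7.01% of all genes) and 3 for sex (Adrb3, Adra2a and Pde3b, against 10.4%). The ordinary linear model called 0 members in each of the 5 comparisons, both with adjustment at 0.05 and at an unadjusted p under 0.01. The median log2 difference was -0.13 over the 8 members and -0.074 over all genes tested, and 2 of 8 members were positive against 37.5% of all genes. No member had KO and WT libraries fully apart, where 6.04% of all genes were lower and 3.03% higher in KO without overlap. All 5 comparisons rest on the same 9 libraries.

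The share of Adrb3 in the receptor pair and that of Adcy3 among the cyclases did not overlap between the genotypes. Among single genes tested, 6.04% were lower and 3.03% higher in KO without overlap. No such background was computed for shares. Of the summed FPKM of the beta receptors Adrb1 and Adrb3, Adrb3 held 79.2%, 74.0% and 73.8% in the WT females and 74.2% and 73.8% in the WT males. It held 89.0% and 84.3% in the KO females and 93.0% and 85.6% in the KO males. All KO libraries were above all WT libraries. The mean share was 88.0% ± 3.89 in KO (SD, n = 4) against 75.0% ± 2.36 in WT (n = 5). This share was added after the values were seen and follows from the levels of Adrb1 and Adrb3 given above, so it is a description with no test. The summed level of the pair was 45.6 ± 11.8 FPKM in KO against 61.3 ± 17.97 in WT, with overlapping libraries.

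Among the 10 adenylyl cyclase genes, Adcy3 held 27.3%, 30.1% and 35.2% of the summed FPKM in the WT females and 32.8% and 25.4% in the WT males. It held 44.5% and 44.1% in the KO females and 36.8% and 40.4% in the KO males. The KO libraries were again all above the WT libraries. The mean share was 41.5% ± 3.59 in KO (SD, n = 4) against 30.2% ± 3.98 in WT (n = 5), higher by 11.3 points (exact permutation p = 0.0159, two-sided). Adjusted over the 4 planned shares described here it did not pass (exact permutation, adjusted p 0.0635). Adjusted over all 5 shares planned, the exact permutation p was 0.0397, a value that rests in part on the share not described. The summed level of the cyclases overlapped, at 65.8 ± 8.37 FPKM in KO and 67.3 ± 9.36 in WT. Adcy6, the most abundant cyclase in WT means, was 23.0 ± 2.06 FPKM in KO and 28.8 ± 3.81 in WT, and Adcy9 was 6.49 ± 1.21 and 8.42 ± 0.888.

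**Figure D2:**
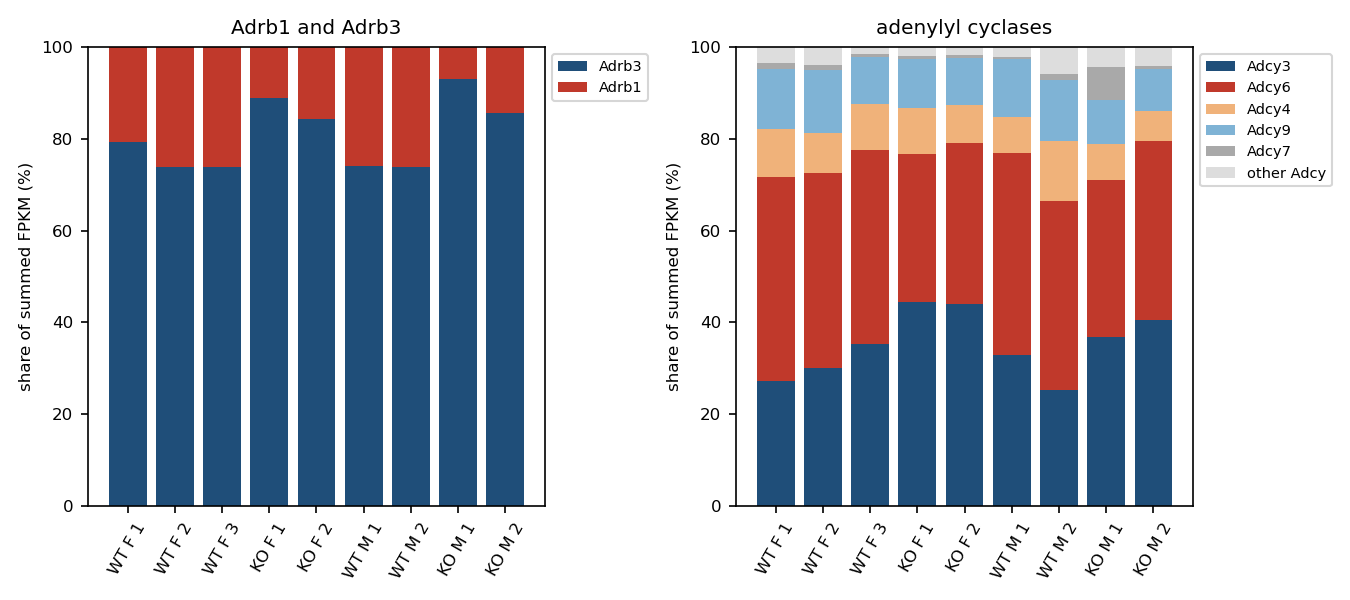
Share of the summed FPKM of Adrb1 and Adrb3 (left) and of the adenylyl cyclases (right) held by each gene, in percent, with 1 bar per library (F female, M male). Adrb3 holds 84.3% to 93.0% in the libraries labelled KO and 73.8% to 79.2% in those labelled WT, and Adcy3 holds 36.8% to 44.5% and 25.4% to 35.2%.

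With any 1 WT library left out, the Adcy3 share still differed in the same direction, by 10.1 to 12.6 points, but the exact permutation p was then 0.0286, the smallest that 4 against 4 allows, or 0.114 adjusted over the 4 shares and 0.0714 over the 5. With any 1 KO library left out, the exact permutation p was 0.0714 adjusted over the 4 shares and 0.0446 over the 5. The other 3 shares did not pass (exact permutation, adjusted p 0.516 each). Prkar2b held 76.1% to 84.8% of the protein kinase A regulatory subunits, Pde3b held 96.7% to 98.8% of the Pde3 pair, and Pde4d held 49.4% to 64.5% of the Pde4 family.

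Of 127 other genes of the pathway, grouped in 12 lists by role, 115 could be tested and 8 were called for the averaged genotype by limma (6.96%, against 3.6% of all genes), 4 higher and 4 lower in KO. The lower genes were the receptors Sctr, Hcar1 and Hcar2 and the inhibitory G protein subunit Gnai1. The higher genes were Adcy2, Pkia, Pde7b and Bves. In females alone and in males alone limma called 0 of the 115, and 16 and 31 had an unadjusted p under 0.05, where 12.7% and 16.6% of all genes did. For the averaged genotype 36 of the 115 did, where 20.2% of all genes did. With adjustment, the ordinary linear model called 0 in all of these.

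Sctr, the stimulatory receptor for the gut hormone secretin, had the largest fall. It was 5.52, 7.79 and 3.85 FPKM in the WT females, 5.04 and 6.67 in the WT males, 1.05 and 0.796 in the KO females and 0.721 and 0.771 in the KO males. The difference was -2.77 on the log2 scale (SE 0.22, limma adjusted p 0.00608), and it passed with each of the 9 libraries left out in turn. It was the 1 called gene of 9 tested stimulatory receptors outside the adrenergic family. Of these 9, 2 were positive (median -0.49), against 37.5% of all genes tested. The highest others in this list, Adora2a and Mc2r, had 4.47 ± 1.31 and 2.81 ± 0.905 FPKM in KO against 4.55 ± 0.798 and 4.87 ± 1.74 in WT, and were not called.

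Hcar1 and Hcar2 are inhibitory receptors for lactate and for hydroxybutyrate, and both restrain lipolysis. Hcar1 was 10.7 to 15.7 FPKM in the WT females, 18.7 and 14.1 in the WT males, 4.04 and 4.57 in the KO females and 2.40 and 4.34 in the KO males, a difference of -1.93 (SE 0.21, limma adjusted p 0.0156). Hcar2 was 2.00 to 2.94 FPKM in the WT females, 3.86 and 4.63 in the WT males, 0.894 and 0.623 in the KO females and 0.829 and 1.18 in the KO males, a difference of -1.91 (SE 0.20, limma adjusted p 0.0139). In both genes all KO libraries were below all WT libraries. The calls were lost when WT female 1 or KO female 1 was left out, and also without KO female 2 for Hcar1 and without WT male 2 for Hcar2 (highest limma adjusted p 0.1002 and 0.0664). All 6 tested inhibitory receptors had a negative difference (median -1.38), where 37.5% of all genes tested had a positive one. The most abundant of the 6, Adora1 (17.8 ± 3.08 FPKM in KO, 21.4 ± 4.22 in WT) and Ptger3 (11.1 ± 5.43 and 16.8 ± 4.54), were not called.

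Gnai1, which couples such receptors to the cyclase, was 5.00 to 7.29 FPKM in KO and 8.47 to 13.9 in WT, without overlap, a difference of -0.82 (SE 0.17, limma adjusted p 0.0442). It was the 1 called gene of 14 tested G protein subunits. The inhibitory subunit Gnai2 was 59.7 ± 23.9 FPKM in KO and 62.2 ± 5.95 in WT (limma adjusted p 0.829). Gnai3, also inhibitory, was 8.92 ± 1.85 and 9.49 ± 0.770 FPKM (limma adjusted p 0.766). Gnas, the stimulatory subunit, was the most abundant gene of the lists and was 2860 ± 427 FPKM in KO against 2425 ± 384 in WT, with a difference of 0.27 (SE 0.13, limma adjusted p 0.311). Within the G protein list Gng5 followed, at 190 ± 12.8 and 200 ± 20.2 FPKM.

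The called genes that were higher in KO came from 4 lists. Pde7b, a cAMP phosphodiesterase, was 5.11 to 6.12 FPKM in KO and 2.04 to 4.80 in WT, a difference of 0.92 (SE 0.18, limma adjusted p 0.0403). Adcy2, a low level cyclase, was 0.438 to 1.24 FPKM in KO and 0.113 to 0.269 in WT, a difference of 2.22 (SE 0.40, limma adjusted p 0.0370). Pkia, an inhibitor of the protein kinase A catalytic subunit, was 5.05 to 15.6 FPKM in KO and 1.24 to 3.71 in WT, a difference of 1.82 (SE 0.35, limma adjusted p 0.0403).

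Bves, a cAMP-binding protein of striated muscle, was 1.43 to 4.56 FPKM in KO and 0.267 to 0.945 in WT, a difference of 2.33 (SE 0.40, limma adjusted p 0.0352). In each of these 4 genes, and in Gnai1, the genotypes did not overlap. The called genes were picked on these same libraries, so their separation is no further support. The calls of Gnai1, Pde7b, Adcy2, Pkia and Bves were lost when any 1 of WT female 1, 2 or 3, KO female 1 or 2, KO male 1 or WT male 2 was left out, with limma adjusted p up to 0.168, 0.159, 0.143, 0.159 and 0.139. The calls of these 5 genes were also lost without the mean-variance trend, with array weights, with no filter and with the ordinary linear model adjusted, those of Gnai1 and Pde7b with median centring or quantile normalization, and those of Pde7b and Pkia in the additive model.

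**Figure D3:**
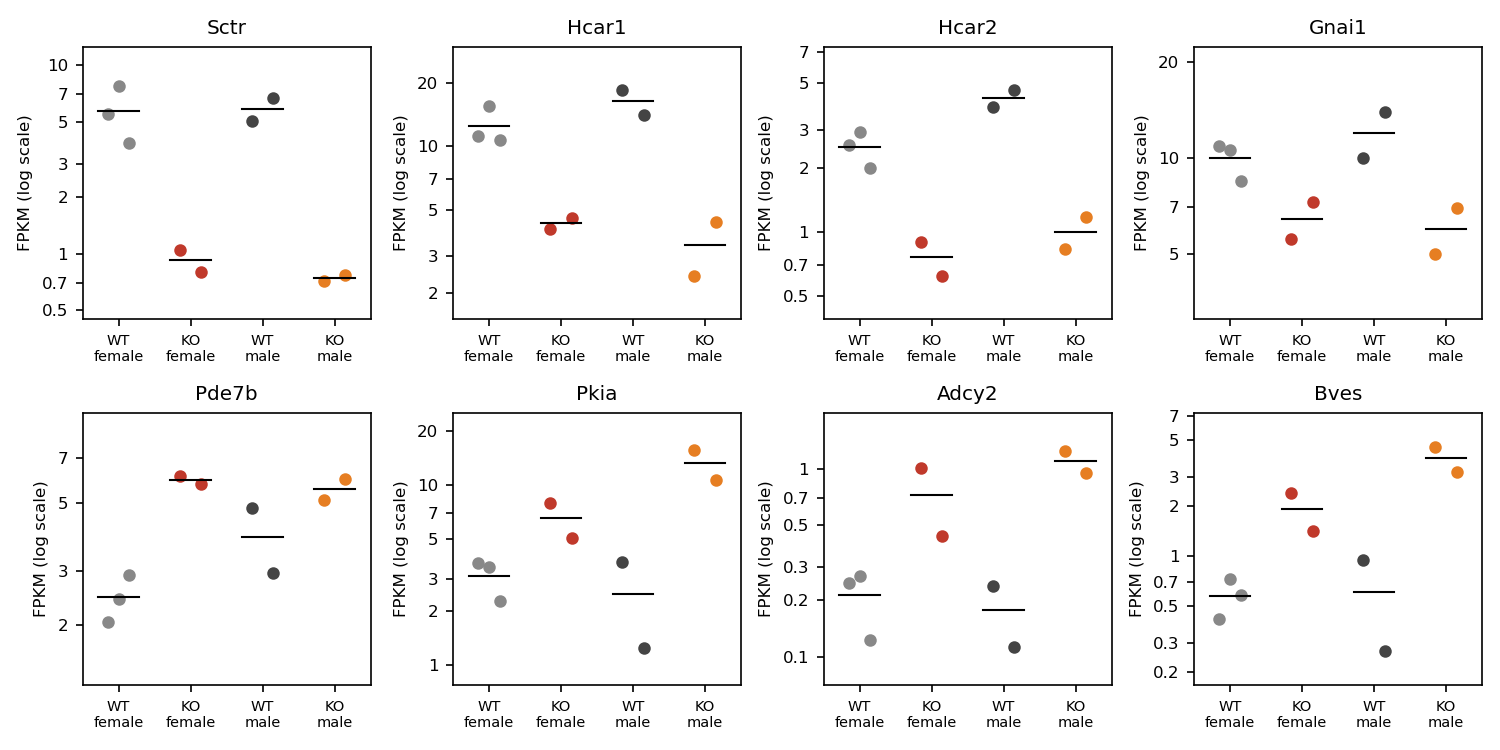
Level (vertical axis, FPKM, log scale with a separate range for each gene) of the 8 other pathway genes called by limma, by labelled genotype and sex. Each point is 1 library and each bar is the mean of its group. In every panel the KO points lie entirely on 1 side of the WT points, as for Sctr at 0.721 to 1.05 FPKM against 3.85 to 7.79. The genes were picked by their call on these same libraries, so the separation is no further support. Of all genes tested, 6.04% were lower and 3.03% higher in KO without overlap.

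The levels of markers of some other cell types differed between the genotypes as well. The permutation p given here for marker scores are not adjusted over the marker lists. All 9 skeletal muscle markers had a higher mean in KO, and their summed level was 1890 to 8926 FPKM in KO against 307 to 1619 in WT (score difference 2.17 log2 units, exact permutation p = 0.00794, the smallest possible). Among the KO libraries Bves, Pkia and Adcy2 were each highest in KO male 1, which had the highest muscle sum. They were each lowest in KO female 2, which had the lowest sum. Pde7b, also called higher in KO, was instead lowest in KO male 1 (5.11 FPKM) and highest in KO female 1 (6.12 FPKM). White adipocyte markers summed to 507 to 768 FPKM in KO and 816 to 1338 in WT (7 of 9 lower in KO, exact permutation p of the score = 0.0238). Most of this sum was Adipoq (463 to 676 FPKM in KO, 734.5 to 1014 in WT), so it is not a measure of white adipocytes alone. Retn, the next in level, overlapped (31.4 to 85.2 FPKM in KO, 56.3 to 287 in WT). Smooth muscle markers summed to 31.5 to 50.7 FPKM in KO and 52.5 to 76.6 in WT (4 of 4 lower, exact permutation p = 0.00794). Fibroblast markers summed to 125 to 211 against 152 to 275, with overlapping libraries (6 of 6 lower, exact permutation p = 0.0317). The part of these cell types in the differences of Adrb1, of the receptor and cyclase shares and of the called genes was not tested. In whole tissue, fewer cells of a type and less RNA per cell cannot be told apart.

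**Figure D4:**
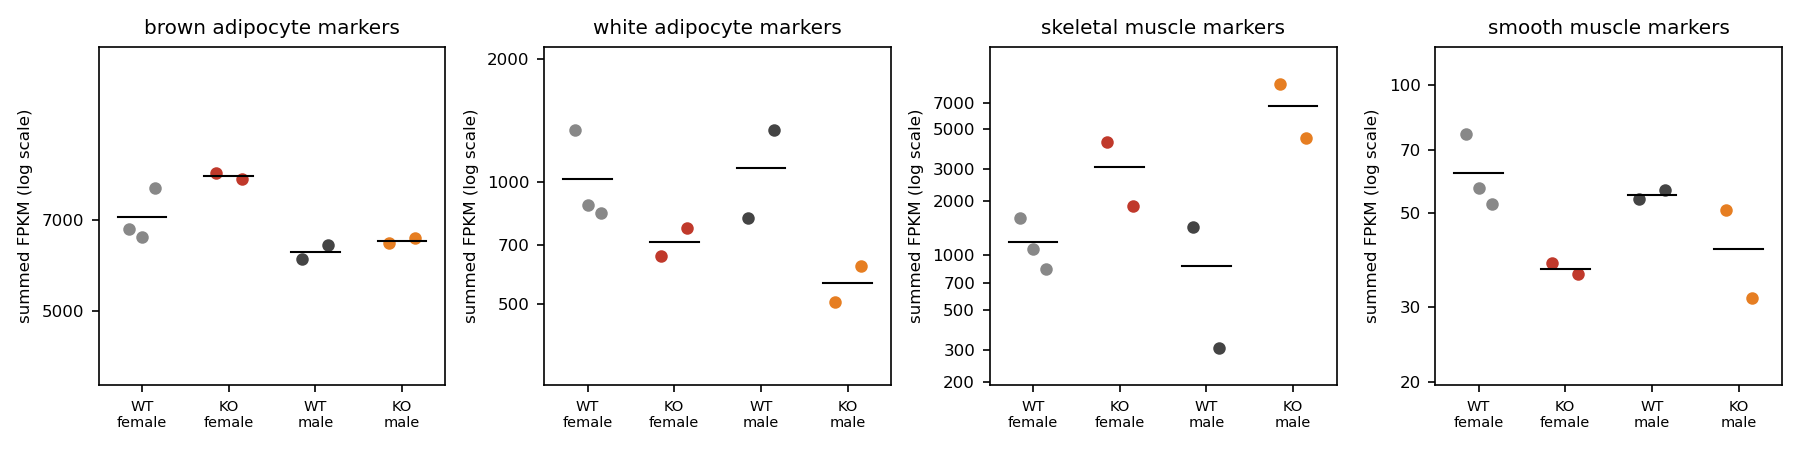
Summed level of 4 lists of cell type markers (vertical axis, FPKM, log scale with a separate range for each list) by labelled genotype and sex, with 1 point per library and a bar at the group mean. The skeletal muscle sum is 1890 to 8926 FPKM in KO and 307 to 1619 in WT. The white adipocyte sum, most of it Adipoq, is 507 to 768 and 816 to 1338, and the brown adipocyte sums overlap.

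Neither the other adrenergic receptors nor the genes induced by cAMP held a called gene. Of the 5 other adrenergic receptors, 2 had an unadjusted p under 0.05. Adra1d, an alpha-1 receptor, was 4.66 to 6.13 FPKM in KO and 5.59 to 9.54 in WT, with a difference of -0.56 (SE 0.15, limma adjusted p 0.0805), which did not pass. Of 14 genes induced by cAMP, 12 had a negative difference (median -0.79), and 0 were called by limma. Among all genes tested 37.5% had a positive difference (median -0.074). The genotypes overlapped in each of the 14. The positive genes were Ucp1 and Ppargc1a (11.8 ± 4.08 FPKM in KO, 9.53 ± 5.10 in WT). Some of the others varied widely within WT. Fos was 0.595 FPKM in WT male 1 and 18.8 in WT male 2, and Sik1 was 6.39 and 29.7. An unadjusted p under 0.05 was found for 5 of the 14, with Ucp1 higher in KO and the other 4 lower, where 20.2% of all genes had one. The most abundant of them were Ucp1 and Pck1, an enzyme of glyceroneogenesis (1012 ± 209 FPKM in KO and 1237 ± 227 in WT). Ucp1, the uncoupling protein that makes heat, was 2504 ± 350 FPKM in KO against 1820 ± 384 in WT, with a difference of 0.52 (SE 0.13, limma adjusted p 0.0739). The most negative, Nr4a1, an early gene chosen after its values were seen, was 8.08 to 62.7 FPKM in KO, 8.14 in WT male 1 and 107.5 to 166 in the other WT libraries, with a difference of -1.83 (SE 0.75, limma adjusted p 0.222). Over the alternatives it ran from -0.86 without WT male 2 to -2.81 without WT male 1, and it passed in the last of these (limma adjusted p 0.0136), where WT male 2 stands alone for its group.

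The medians of the remaining lists ran from -0.14 to 0.21, where the median of all genes tested was -0.074 and 37.5% of them were positive. Of 8 protein kinase A subunits and inhibitors, Pkia among them, 5 were positive (median 0.21), with Prkaca, the main catalytic subunit, at 146 ± 10.8 FPKM in KO and 170 ± 7.01 in WT (difference -0.23, SE 0.065, limma adjusted p 0.0912). Prkar1a, a type I regulatory subunit, was 56.3 ± 2.94 FPKM in KO and 59.3 ± 2.89 in WT. Of 12 phosphodiesterases 5 were positive (median -0.10), and the most abundant were Pde8a (18.7 ± 2.03 and 18.8 ± 1.82 FPKM) and Pde2a (14.8 ± 2.40 and 17.3 ± 2.31). The A-kinase anchoring proteins had 3 of 11 positive (median -0.14), led in level by Akap1 (64.0 ± 10.4 and 84.9 ± 11.5 FPKM) and Akap2 (14.0 ± 1.67 and 15.7 ± 1.94), and 0 were called. Receptor desensitization had 3 of 7 positive (median -0.13) and 0 called, and was led by Rgs2 (28.8 ± 11.3 and 31.7 ± 15.6 FPKM) and the receptor kinase Adrbk1 (20.1 ± 8.69 and 17.9 ± 1.13). Adrbk1 was 33.0 FPKM in KO male 1 and 13.96 to 16.79 in the other KO libraries. Effectors and transcription factors, Bves among them, had 10 of 15 positive (median 0.12), and were led by Atf2 (16.0 ± 1.63 and 17.0 ± 2.21 FPKM) and Popdc2 (11.5 ± 0.783 and 10.9 ± 1.803). Of the genes for making, taking up and breaking down catecholamines, 0 of 6 were called, and Maob, a monoamine oxidase, was 39.5 ± 3.16 FPKM in KO and 35.5 ± 2.95 in WT. Th, an enzyme of catecholamine synthesis, was at most 0.0442 FPKM and was listed at 0 in 4 of the 9 libraries. Values this close to 0 are not a measure of the nerve supply, which was not tested.

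**Figure D5:**
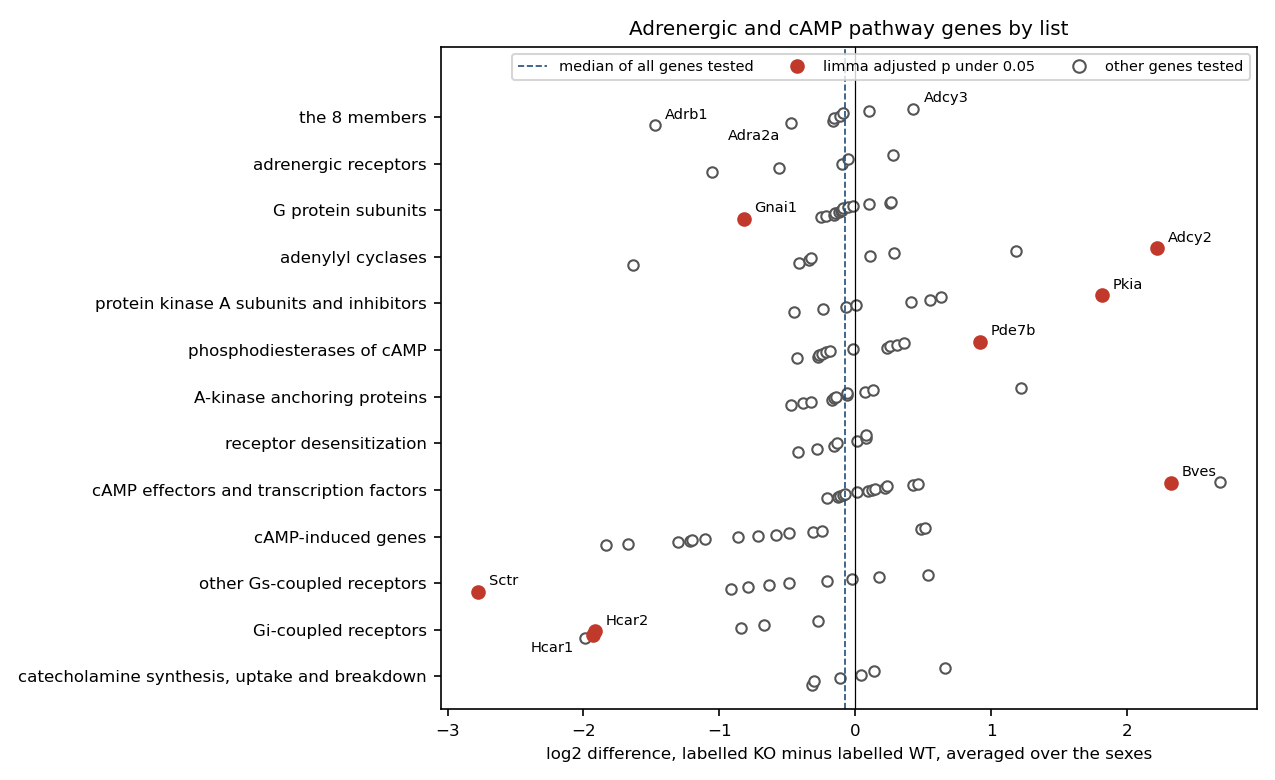
Log2 difference, libraries labelled KO minus WT averaged over the sexes (horizontal axis), for the 8 members and for the tested genes of each list (rows). Filled points passed limma at an adjusted p under 0.05, open points did not, and the dashed line is the median of all genes tested, -0.074. The members lie between -1.48 for Adrb1 and 0.43 for Adcy3, none of them filled.

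Over the 9 libraries, the genes whose log2 FPKM followed Adrb3 most closely, among 10877 genes with a mean of at least 1 FPKM, were Lpgat1, Sema4c and Fam96b (Pearson r 0.939, 0.939 and 0.931). Without the 2 libraries farthest from the median of Adrb3 these were 0.831, 0.723 and 0.800. For Adrb1 they were Hoxc5, Tob1 and Wdr61 (r 0.985, 0.964 and 0.963, and 0.961, 0.904 and 0.889 without the 2 farthest libraries). Hoxc5 ranked the 9 libraries in the same order as Adrb1, from 1.34 to 8.55 FPKM. These are descriptions, picked as the highest of many genes, and the libraries share genotype, sex and tissue makeup.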

How the data were processed

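Brown adipose RNA of 4 GHRH-KO and 5 WT mice was sequenced after 2 rounds of poly A selection, with paired reads of 50 bases. Each library has 1 table of FPKM per symbol, deposited by the authors. According to the study's methods and the submitters' processing notes, reads were converted with bcl2fastq 1.8.4, aligned to mm10 (GRCm38) with TopHat 2.0.11, and abundances estimated with Bowtie. The instrument is given under 2 names, and the gene annotation and strand setting are not given in the sources used here. Fragment counts are unknown, so precision comes from the spread between animals.

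Genes above 0 FPKM in every library (14675 of 24356) were fitted on log2 FPKM with no pseudocount in limma 3.58.1 (R 4.3.3), with a mean per sex and genotype, a mean-variance trend and Benjamini-Hochberg adjustment over all genes tested at 0.05. limma took the place of the ordinary linear model of the study, which was run as an alternative. The genotype difference was averaged over the sexes. Single genes, family shares and marker scores (mean log2(FPKM + 0.1), centred per gene) were compared by two-sided exact permutation tests over libraries. Only the family shares were adjusted, and the permutation p of single genes and of marker scores are unadjusted. The permutation tests used numpy 2.4.6 in Python 3.11.15. The fit was tested on simulated data. Positions and promoters are those of RefSeq on GRCm38.p6.

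The members and lists were chosen with earlier results of these data known. Named genes were the 8 members, the other pathway genes called by limma (at most 5 per list), the 2 of highest mean FPKM in each list, and the 3 most correlated with Adrb3 and with the member of lowest limma p. Other genes under an adjusted p of 0.1, Nr4a1, Gnai2, Gnai3, Ppargc1a, Fos, Sik1 and the Adrb3 share of Adrb1 and Adrb3 were added after their values were seen. Of the genes so named and the 5 shares planned, a few are not reported here. Alternatives covered the pseudocount, scaling, filter, model, call rule and each library left out in turn.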

Additional observations from a re-analysis of the deposited data

Results flagged for a closer look

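Within the 5 libraries labelled WT, Adrb1 in WT male 1 stood apart at 8.71 FPKM, where the others ran from 16.0 to 17.5. WT male 1 also stood apart for the Prkar2b share of the protein kinase A regulatory subunits, at 84.8% against 81.6% to 81.9% in the other WT libraries. The Adrb3 share of Adrb1 and Adrb3 was 79.2% in WT female 1, against 73.8% to 74.2% in the other WT libraries. These were 3 of 26 groups examined for a library far from the rest, and about 1 in 20 such groups stands out by chance.

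Pde3b differed in direction between the sexes: every KO female was above every WT female and every KO male below every WT male. Opposite directions without overlap within each sex were also found for 3.35% of all genes tested. The difference between the sexes itself was -0.64 on the log2 scale (SE 0.17) and did not pass (limma adjusted p 0.624 for the interaction).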

How the results depend on the processing

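The number of members called for the averaged genotype was 0 in the fit reported and under all alternatives but scaling each library to a common sum of FPKM, where it was 1 (Adrb1), and over the libraries left out it was 0 to 1 (Adrb1 without KO male 2). With libraries left out it was 0 to 3 in males (Adrb1, Prkar2b and Pde3b), 0 to 2 for the interaction (Adra2a and Pde3b) and 0 to 1 for sex (Adra2a), the higher counts all without KO male 2. That leaves KO male 1 alone in its group, and of all genes 8.81% were then called in males, 4.91% for the interaction and 5.47% for sex. Members without overlap numbered 0 to 1 (Adrb1 without KO female 2 or WT male 1, Adra2a without KO male 1).

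The 529 genes called became 222 with median centring, 1062 with a common sum of FPKM, 170 with no filter, 34 with no mean-variance trend, 55 with array weights, 19 with the ordinary linear model adjusted, 1107 with it at an unadjusted p under 0.01, and 8 (without KO female 1) to 1105 (without KO male 2) with a library left out. Of the calls, 210 were higher and 319 lower, against 130 and 92 with median centring, 228 and 216 with quantile normalization, and 246 and 816 with a common sum of FPKM. The 8 other pathway genes called became 14 with a common sum of FPKM, 3 with no filter, 3 with no trend, 3 with array weights, 0 with the ordinary model adjusted, 13 at its unadjusted p under 0.01, and 1 to 16 with a library left out. The cause of these shifts was not tested.

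Signs turned for values that had not passed: Adra2a averaged with a pseudocount of 1 (0.0065), and with libraries left out Adrb3 (-0.32 to 0.10), Pde4d (-0.092 to 0.30), Adra2a in males (-0.14 to 1.63), Adcy3 in males (-0.029 to 0.39) and the Prkar2b share (-2.15 to 0.256 points). With libraries left out, the Adcy3 share differed by 10.1 to 12.8 points, over the threshold adjusted over 5 shares without any 1 WT library, and the Adrb3 share of Adrb1 and Adrb3 by 11.3 to 14.2 points. Splits within each sex moved the fibroblast score (-0.61) to an exact permutation p of 0.05 and the sympathetic neuron score (0.15) to 0.0667. No fragment counts were used here, so for Adra2a, at 0.0345 to 0.348 FPKM, the counting error is unknown.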

Other observations

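The marker lists not described above did not separate the genotypes clearly, and their permutation p are unadjusted as well. Sympathetic neuron markers summed to 0.0712 to 0.163 FPKM in KO and 0.0426 to 0.0943 in WT, close to 0 (exact permutation p = 0.0397). Endothelial markers (82.6 to 133 FPKM in KO, 110 to 142 in WT, exact permutation p = 0.214) and macrophage markers (6.15 to 47.5 and 9.38 to 25.4, exact permutation p = 0.563) overlapped. In both of these lists 0 of 4 markers had the higher mean log2 level in KO. Lymphocyte markers (exact permutation p = 0.516) and cell division markers (exact permutation p = 0.944) were both highest in KO male 1. Adcy7 also was highest there, at 4.31 FPKM against 0.348 to 0.824 in the other 8 libraries.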
